A study of Mus musculus with 16 samples.

Results

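Sall2, Pou3f1, Otx2, Fgf5, Hesx1 and Zfp281 are genes of the formative phase, the state that pluripotent cells pass through on the way from naive, ground-state pluripotency to the primed epiblast. They were taken by name, with earlier results of these data known. Every probe set of the array that carried exactly 1 gene symbol and that symbol was used. This gave 8 probe sets of the 20380 with 1 symbol, and 6 genes of the 12393 measured. Pou3f1 and Zfp281 each had 2 probe sets, and the brighter one stood for the gene.

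Messenger RNA levels had been measured on 16 Affymetrix arrays hybridized with RNA of J1 cells, a mouse embryonic stem cell line. All cells had been grown on gelatin in medium with serum and leukaemia inhibitory factor, which holds embryonic stem cells in a mostly naive state. The knockdown arm held 2 Tgif1 KD arrays and 2 shControl arrays, which carried a control short hairpin. The overexpression arm held 4 arrays labelled Tgif1 OE, 4 arrays labelled Tgif2 OE and 4 BirA control arrays, whose cells overexpressed BirA, a bacterial biotin ligase. No source used here gives the promoters, the clones or the time after each perturbation. Nothing in the labels ties replicates to separate cultures, so the p-values cover the spread between these arrays alone, and that spread may be technical.

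Tgif1 and Tgif2 encode homeodomain repressors that bind the sequence TGTCA and Smad proteins. When naive cells leave their ground state, they lower genes such as Esrrb, Tbx3 and Tcl1 and raise the formative genes, largely under fibroblast growth factor (FGF) and ERK signalling. Otx2 is a homeodomain factor that redirects Oct4 to the enhancers of this new state, and Pou3f1 (Oct6) is a POU factor of the early epiblast and of neural progenitors. Sall2 is a zinc finger factor of the spalt family, and Zfp281 is a zinc finger factor that represses Nanog together with the NuRD complex and acts in the naive to primed transition. Hesx1 is a homeodomain repressor known for its role in the forebrain and pituitary. Fgf5, the classical marker of the formative epiblast, encodes a secreted growth factor and is the only member here that is not a transcription factor.

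Because Tgif proteins read TGTCA, the start regions of the members were searched for it. The RefSeq promoter table of build GRCm38.p6 holds windows of 300 bases, from 250 before to 50 after an annotated start, and gave 9 windows for 5 of the members (all but Pou3f1). TGTCA, searched as TGTCA or TGACA, was in 6 of these windows, with at least 1 window for each of the 5 genes. It was in 45.4% of all 32851 windows, so a match is common. The stretches that hold it, 25 bases long, are shown 5′ to 3′ on the strand that reads TGTCA, which is in capitals.
Sall2: ctgggtcaggTGTCAgtgaggcacc
Otx2: ggcttagatgTGTCAatcattctct
Fgf5: acccagcggtTGTCAagagccaccc
Hesx1: tggtgaacgtTGTCAatgaaaacgc
Zfp281: ctggctagccTGTCAatcaagcggg
The Sall2 stretch lies at chr14:52316460-52316484, inside the annotated span of that gene, with the motif beginning at position -151 from the nearest start. The Otx2 stretch, at chr14:48667586-48667610, begins at -92 from one annotated start and lies 45 bases after another. The Fgf5 stretch (chr5:98253981-98254005) begins at -193, and the Hesx1 stretch (chr14:27000144-27000168) at -208 and within the span of the gene's longer model. In Zfp281, the motif begins at -46 (chr1:136624845-136624869).

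All stretches but that of Sall2 read on as TGTCAA, a form that was looked up after these letters had been seen. TGTCAA (or TTGACA) was in 5 of the 9 windows, 2 of them overlapping windows of Otx2 that share 1 site, and in 10.8% of all windows; it is a longer form of TGTCA and overlaps it. The other motifs were also searched on both strands. CAGACA (or TGTCTG), a Smad-type sequence, was in 1 member window and in 21.0% of all windows. GGATTA (or TAATCC), read by bicoid-type homeodomains such as that of Otx2, was in 1 member window against 7.06%, and the octamer ATGCAAAT (or ATTTGCAT), read by POU factors, was in 0 against 1.74%. No binding was measured here, so a match is a description of the letters only.

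Fgf5 and Zfp281 have 1 window each, and the 250 bases before their start lie outside the annotated span of the gene. These are shown whole for the surroundings of the motif, in the direction of transcription, with TGTCA or TGACA in capitals.
Zfp281, chr1:136624651-136624900, plus strand: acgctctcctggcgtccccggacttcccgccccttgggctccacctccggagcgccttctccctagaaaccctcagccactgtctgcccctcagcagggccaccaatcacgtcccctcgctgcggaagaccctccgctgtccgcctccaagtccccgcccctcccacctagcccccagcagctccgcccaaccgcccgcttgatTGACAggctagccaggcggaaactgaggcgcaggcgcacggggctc
Fgf5, chr5:98253934-98254183, plus strand: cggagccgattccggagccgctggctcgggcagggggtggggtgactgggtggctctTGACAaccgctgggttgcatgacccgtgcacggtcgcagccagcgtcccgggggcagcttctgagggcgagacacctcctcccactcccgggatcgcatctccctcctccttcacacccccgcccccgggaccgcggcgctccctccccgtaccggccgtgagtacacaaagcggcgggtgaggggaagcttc

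The labels were checked on the perturbed genes before any other value. Tgif1 read 10.71 and 10.66 log2 on shControl and 7.46 and 7.12 on Tgif1 KD. The Tgif1 probe set was not higher on the arrays labelled Tgif1 OE (10.02 to 10.25) than on BirA control (10.65 to 10.74), and Tgif2 read 9.29 to 9.47 on the arrays labelled Tgif2 OE against 9.17 to 9.36. Tgif1 was called lower on both (-0.58 ± 0.072 log2 for Tgif1 OE and -0.42 ± 0.072 for Tgif2 OE; limma adjusted p = 5.52e-05 and 4.57e-04). Tgif2 was called higher on Tgif1 KD than on shControl (0.81 ± 0.093 log2, limma adjusted p = 1.60e-05). It was called lower on the arrays labelled Tgif1 OE than on BirA control (-0.45 ± 0.065, adjusted p = 1.86e-04). No source used here says if the 2 probe sets read the introduced genes. These signals do not show the labelled overexpression, so both groups are named by their labels throughout. The defining embryonic stem cell genes were bright on all 16 arrays, with Pou5f1 between 12.93 and 13.4 and Sox2 between 12.3 and 12.83 log2. The Tgif2 OE samples carry a separate block of sample numbers, and their processing notes differ from those of the other samples. Median signals of these arrays were 6.511 to 6.555 log2, against 6.406 to 6.44 on BirA control and 6.4 to 6.439 on Tgif1 OE. Deposit, processing and the Tgif2 OE label cannot be told apart. Over all genes, the median change of the Tgif2 OE arrays against BirA control was 0.12 log2, and that of the Tgif1 OE arrays against the Tgif2 OE arrays was -0.10. Changes that involve the Tgif2 OE arrays are given as deposited and, where said, relative to that median; standard errors (SE, after ±) and adjusted p-values belong to the deposited change.

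The 6 genes varied over the arrays to very different extents. A log2 signal depends on each probe set's own hybridization, so signals are compared between arrays and not between genes. Pou3f1, Sall2 and Hesx1 spanned 3.87, 3.48 and 2.56 log2 over the 16 arrays, while Otx2 spanned 1.05, Fgf5 0.86 and Zfp281 0.75. These are the spans of the probe sets that stood for the genes. The second probe set spanned 1.11 for Zfp281, wider than Otx2, and 2.77 for Pou3f1. By mean signal, Fgf5 was among the dimmest 33.33% of all genes, and the other 5 were not.

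**Figure D1:**
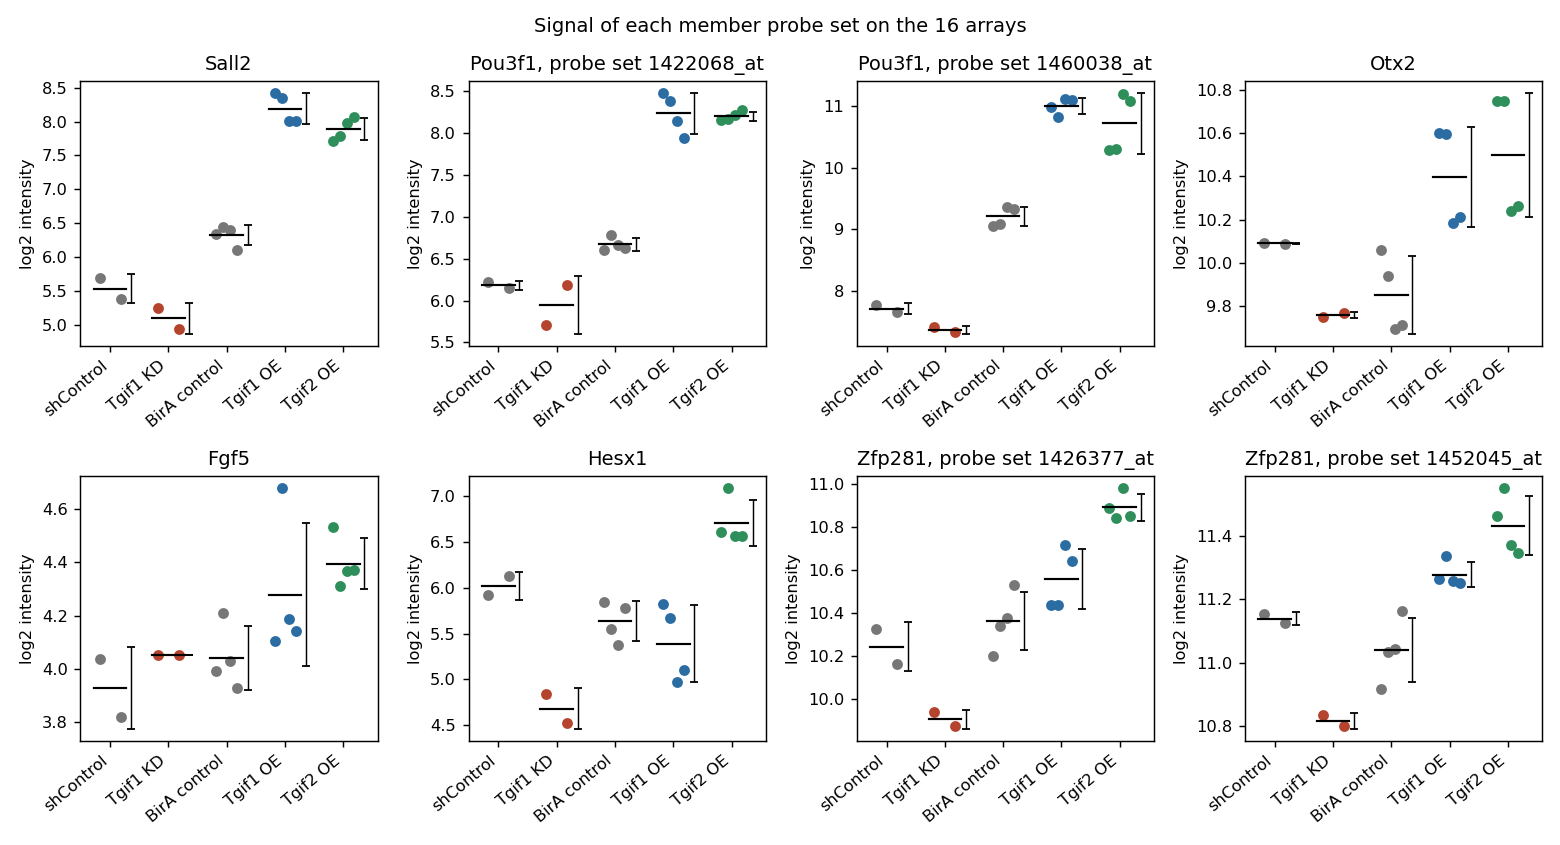
Log2 signal of the 8 probe sets on each of the 16 arrays; points are arrays in replicate order, horizontal lines are group means and bars at their right are SDs (n = 2 or 4), and each panel has its own axis. Sall2 and both Pou3f1 probe sets were higher on every array labelled Tgif1 OE or Tgif2 OE than on any BirA control array, and Hesx1 was lowest on the 2 Tgif1 KD arrays.

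Sall2 and Pou3f1 were much higher on the arrays labelled Tgif1 OE and Tgif2 OE than on BirA control. Sall2 read 6.34, 6.45, 6.395 and 6.11 log2 on the BirA control arrays and 8.42, 8.34, 8.003 and 8.001 on those labelled Tgif1 OE. It read 7.72, 7.78, 7.98 and 8.07 on those labelled Tgif2 OE. The highest BirA control array was thus more than 1 log2 below the lowest array of either overexpression group. The rise was 3.65-fold for Tgif1 OE (log2 change 1.87 ± 0.12, limma adjusted p = 2.31e-07) and 2.96-fold for Tgif2 OE (1.56 ± 0.12, or 1.44 relative to the median; adjusted p = 8.71e-07). Both comparisons use the same 4 BirA control arrays.

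Pou3f1 gave the widest range of any member. Its brighter probe set (1460038_at) read 9.06, 9.09, 9.36 and 9.33 log2 on BirA control and 10.99, 10.83, 11.11 and 11.10 on the arrays labelled Tgif1 OE. It read 10.29, 10.30, 11.20 and 11.08 on those labelled Tgif2 OE, where replicates 1 and 2 lay well below replicates 3 and 4. Neither overexpression group overlapped BirA control. The log2 change was 1.80 ± 0.18 for Tgif1 OE (3.48-fold, adjusted p = 6.76e-06) and 1.51 ± 0.18 for Tgif2 OE (2.84-fold, 1.39 relative to the median, adjusted p = 1.92e-05).

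The second Pou3f1 probe set (1422068_at) read 6.603, 6.78, 6.66 and 6.63 log2 on BirA control, 8.48, 8.38, 8.14 and 7.94 for Tgif1 OE, and 8.16, 8.16, 8.22 and 8.27 for Tgif2 OE. It rose by 1.56 ± 0.11 and 1.53 ± 0.11 log2 (adjusted p over all probe sets 7.71e-07 and 5.74e-07). The gap between replicate pairs of the brighter probe set on the Tgif2 OE arrays was not seen in this one.

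Sall2 and Pou3f1 were also the members that differed between the 2 kinds of control. Sall2 read 5.69 and 5.38 log2 on shControl, below every BirA control array, a difference of -0.79 ± 0.15 (adjusted p = 0.00188). That call was lost without shControl replicate 2 (-0.64, adjusted p = 0.0539). Pou3f1 read 7.78 and 7.66 on shControl, -1.49 ± 0.22 against BirA control (adjusted p = 2.54e-04), and its second probe set gave -0.49 ± 0.14 (adjusted p = 0.0221). These were 2 of the 6 genes, both lower, while 21.1% of all genes were called, 13.6% higher and 7.5% lower. The control groups did not overlap in 4 members (Sall2, Pou3f1, Otx2 and Hesx1), as in 43.8% of all genes. The control vector and the arm of the study cannot be told apart in this comparison.

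On Tgif1 KD the signals of both genes were low. Sall2 read 5.26 and 4.94 log2, against 5.69 and 5.38 on shControl, a difference of -0.44 ± 0.17 that did not pass the threshold (adjusted p = 0.0796). Pou3f1 read 7.41 and 7.33 against 7.78 and 7.66 (-0.35 ± 0.25, adjusted p = 0.354). Both calls depend on the spread pooled over the groups. With only the 4 arrays compared in the fit, Pou3f1 had an SE of 0.074 and passed (adjusted p = 0.0242), while Sall2 did not pass. With replicates 1 and 2, or 3 and 4, of the overexpression arm alone, Pou3f1 (adjusted p = 0.00580 and 0.00330) and Sall2 (0.0241 and 0.0331) passed. The calls over all genes rose as well in those fits, from 3146 to 4975 and 5185. The KD and control arrays did not overlap in either gene, a state that 69.2% of all genes showed in this comparison of 2 arrays with 2. The second Pou3f1 probe set overlapped, at 5.71 and 6.19 against 6.22 and 6.15 log2.

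Otx2 was higher in both overexpression groups, by a smaller amount. It read 10.06, 9.94, 9.70 and 9.71 log2 on BirA control, 10.60, 10.60, 10.18 and 10.21 on the arrays labelled Tgif1 OE, and 10.75, 10.75, 10.24 and 10.27 on those labelled Tgif2 OE. Every overexpression array stood above every BirA control array. The change was 0.55 ± 0.14 log2 for Tgif1 OE (1.46-fold, adjusted p = 0.0101) and 0.65 ± 0.14 for Tgif2 OE (1.57-fold, adjusted p = 0.00208). Relative to the median of all genes they were 0.53 and 0.53.

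In all 3 groups of the overexpression arm, replicates 1 and 2 of Otx2 were higher than replicates 3 and 4. Taken within each pair, the Tgif1 OE change was 0.60 and 0.49 log2 and the Tgif2 OE change 0.75 and 0.55. On the knockdown side Otx2 read 10.09 and 10.09 on shControl and 9.75 and 9.77 on Tgif1 KD, a difference of -0.33 ± 0.19 (adjusted p = 0.245). With the replicate number as a block, which takes up the gap between the pairs, the same difference had an SE of 0.075 and an adjusted p of 0.00548. It also passed with only the 4 arrays compared (0.0136) and with either pair of the overexpression arm alone (0.00210 and 8.37e-04), so this call too depends on the pooled spread.

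**Figure D2:**
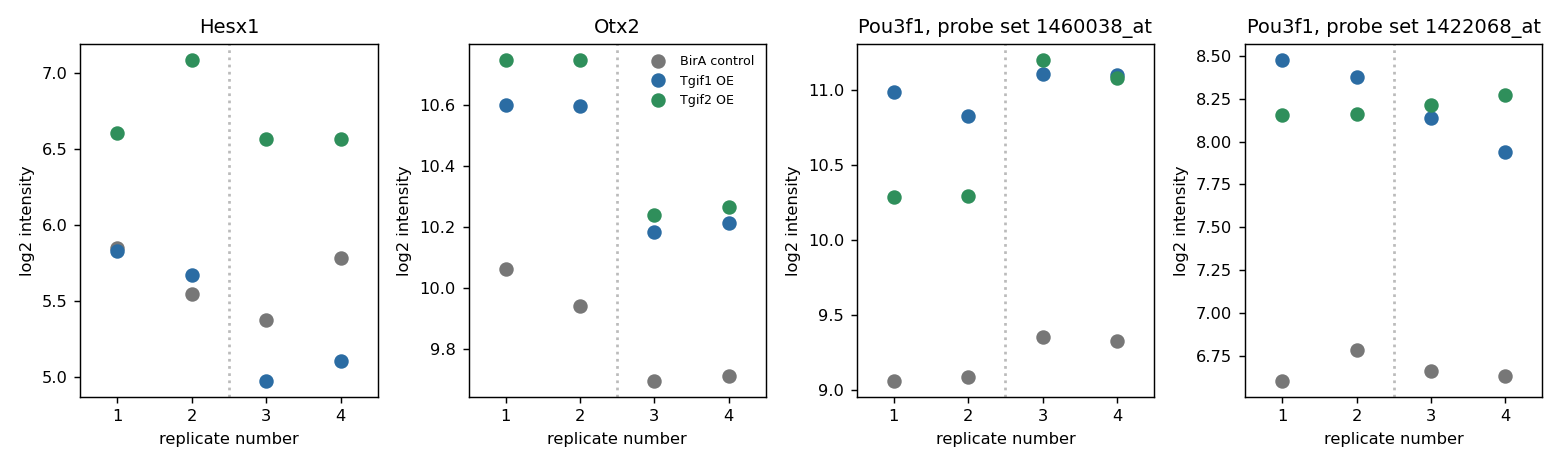
Log2 signal against replicate number on the 12 arrays of the overexpression arm, for Hesx1, Otx2 and both Pou3f1 probe sets; colours are the 3 groups and the dotted line parts replicates 1 and 2 from 3 and 4. Otx2 was higher on replicates 1 and 2 in all 3 groups, and Pou3f1 probe set 1460038_at differed between the pairs on the arrays labelled Tgif2 OE (10.29 against 11.14 on average).

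Hesx1 went its own way. It read 5.92 and 6.13 log2 on shControl and 4.84 and 4.53 on Tgif1 KD, so that both knockdown arrays lay more than 1 log2 below both controls. The fall was 2.54-fold (log2 change -1.34 ± 0.26, adjusted p = 0.00126), and the call remained in each of the 15 alternatives run (adjusted p 1.59e-04 to 0.0202).

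In the overexpression arm Hesx1 read 5.85, 5.55, 5.37 and 5.78 log2 on BirA control and 6.604, 7.09, 6.57 and 6.57 on the arrays labelled Tgif2 OE, above every control. This rise was 2.10-fold (1.07 ± 0.18 log2, 0.95 relative to the median, adjusted p = 4.30e-04). Those labelled Tgif1 OE read 5.83, 5.67, 4.97 and 5.10, which overlapped the controls, and the difference from BirA control was -0.25 ± 0.18 (adjusted p = 0.410). Replicates 1 and 2 alone gave 0.05, and replicates 3 and 4 alone -0.54 (adjusted p = 0.0291). Tgif1 OE minus Tgif2 OE came to -1.32 ± 0.18 log2 (-1.21 relative to the median; adjusted p = 3.41e-04), with no overlap between these groups.

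Zfp281 moved by small amounts with a small spread. Its brighter probe set (1452045_at) read 11.15 and 11.12 log2 on shControl and 10.84 and 10.80 on Tgif1 KD, a fall of 1.25-fold (-0.32 ± 0.087 log2, adjusted p = 0.0128). The adjusted p rose to 0.0779 without Tgif1 KD replicate 2, 0.0745 without shControl replicate 1 and 0.0545 without shControl replicate 2. The second probe set (1426377_at) read 10.32 and 10.16 on shControl and 9.94 and 9.87 on Tgif1 KD (-0.34 ± 0.12, adjusted p = 0.0461).

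Against BirA control (10.92, 11.04, 11.04 and 11.16 log2), the brighter Zfp281 probe set read 11.26, 11.34, 11.26 and 11.25 on the arrays labelled Tgif1 OE and 11.46, 11.55, 11.37 and 11.35 on those labelled Tgif2 OE. Neither group overlapped the controls. The changes were 0.24 ± 0.061 (1.18-fold, adjusted p = 0.0120) and 0.39 ± 0.061 (1.31-fold, 0.27 relative to the median, adjusted p = 2.11e-04). With replicates 3 and 4 of the arm alone the Tgif1 OE change was 0.15 (adjusted p = 0.0947). The second probe set gave 0.20 ± 0.081 for Tgif1 OE, which did not pass (adjusted p = 0.114), and 0.53 ± 0.081 for Tgif2 OE (adjusted p = 2.14e-04). Between the arrays labelled Tgif1 OE and Tgif2 OE the second probe set differed by -0.33 ± 0.081 (-0.23 relative to the median, adjusted p = 0.0125) and the brighter one by -0.16 ± 0.061 (adjusted p = 0.0877).

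Fgf5 stayed near the low end of the scale in all 5 groups. It read 4.04 and 3.82 log2 on shControl, 4.05 and 4.05 on Tgif1 KD, and 3.99, 4.21, 4.03 and 3.93 on BirA control. It read 4.11, 4.68, 4.19 and 4.14 on the arrays labelled Tgif1 OE, and on those labelled Tgif2 OE 4.53, 4.31, 4.37 and 4.37. Replicate 2 of Tgif1 OE was the highest of the 16 arrays, and the other 3 of that group lay below the highest BirA control array. The Fgf5 probe set was thus dim on the same arrays where Sall2 and Pou3f1 rose. A dim signal of 1 probe set does not show that its RNA was scarce.

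Of the Fgf5 comparisons, Tgif2 OE with BirA control alone passed the threshold (0.36 ± 0.11 log2, 0.24 relative to the median, adjusted p = 0.0218). It did not pass after quantile normalization (0.23, adjusted p = 0.150), after centring each array on its median (0.25, adjusted p = 0.128) or with replicates 1 and 2 alone (adjusted p = 0.195). Nor did it pass without BirA control replicate 1 (0.0522), BirA control replicate 4 (0.0580) or Tgif2 OE replicate 1 (0.0621). Tgif1 OE differed by 0.24 ± 0.11 (adjusted p = 0.156) and Tgif1 KD by 0.13 ± 0.16 (adjusted p = 0.615).

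Counted together, Tgif1 KD lowered 2 of the 6 genes (Hesx1 and Zfp281) and raised 0, where 25.4% of all genes were called, 12.5% higher and 12.9% lower. The members' median change was -0.34 log2 and that of all genes -0.05. On those labelled Tgif1 OE, 4 of 6 were higher (Sall2, Pou3f1, Otx2 and Zfp281) and 0 lower, where 20.9% of all genes were called, 11.4% higher and 9.51% lower; the medians were 0.39 and 0.01. All 6 were higher on the arrays labelled Tgif2 OE, where 35.4% of all genes were called, 28.7% higher and 6.69% lower, with medians of 0.86 and 0.12. After quantile normalization 5 of 6 were called higher for Tgif2 OE (all but Fgf5), while the share of higher genes among all genes called moved from 81.1% to 51.1% (3559 and 1700 genes). Groups did not overlap in 4 of 6 members for Tgif1 OE and in 6 of 6 for Tgif2 OE, against 23.1% and 32.6% of all genes. Over all probe sets, the shares called were 23.0% for Tgif1 KD, 18.7% for Tgif1 OE, 31.7% for Tgif2 OE, 18.9% for Tgif1 OE against Tgif2 OE and 19.8% between the controls. Of the members' 8 probe sets, 3, 5, 8, 2 and 3 were called in these comparisons. Because the members were chosen with earlier results of these data known, the shares of all genes are no independent yardstick for these counts.

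Directly compared, the arrays labelled Tgif1 OE and Tgif2 OE were called different in 1 of the 6 genes, Hesx1, against 19.7% of all genes called, 2.25% higher and 17.4% lower for Tgif1 OE (279 and 2160 genes, or 668 and 567 after quantile normalization). Hesx1 and Zfp281 did not overlap between these groups, as was so in 24.3% of all genes. Sall2 differed by 0.31 ± 0.12 log2 (0.41 relative to the median, adjusted p = 0.0928) and Pou3f1 by 0.29 ± 0.18 (adjusted p = 0.258). In both genes the pairs of replicates differed: replicates 1 and 2 alone gave 0.63 for Sall2 and 0.62 for Pou3f1 (adjusted p = 0.0107 and 0.00172), while replicates 3 and 4 alone gave -0.022 and -0.037 (adjusted p = 0.926 and 0.733). Sall2 also passed after quantile normalization (0.41, adjusted p = 0.0458), after median centring (0.41, adjusted p = 0.0485) and with array pairs as a random block (adjusted p = 0.0496).

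Zfp281, at -0.16, passed in the comparison of Tgif1 OE with Tgif2 OE with array pairs as a random block (adjusted p = 0.0490), with replicates 1 and 2 alone (-0.21, adjusted p = 0.0485) and with its probe sets averaged (-0.24, adjusted p = 0.0113), but was 0.00016 after quantile normalization. Otx2 differed by -0.10 ± 0.14 (adjusted p = 0.630). Fgf5 differed by -0.12 ± 0.11 (adjusted p = 0.481), and by -0.25 without Tgif1 OE replicate 2 (adjusted p = 0.0464). A difference that misses the threshold here does not show that the levels were the same.

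**Figure D3:**
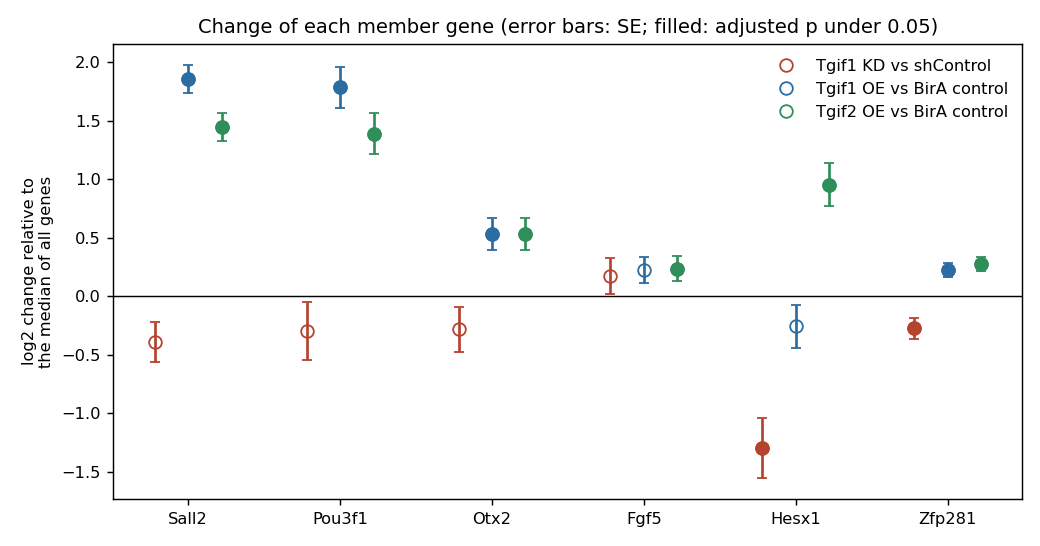
Log2 change of the 6 member genes minus the median over all genes, for Tgif1 KD against shControl and for the arrays labelled Tgif1 OE and Tgif2 OE against the shared BirA control arrays; bars are SEs and filled points had a limma adjusted p under 0.05. Sall2 and Pou3f1 lie highest for both overexpression labels, and Hesx1 is low for Tgif1 KD, near 0 for Tgif1 OE and high for Tgif2 OE.

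The knockdown and overexpression arms share no array, so their Tgif1 effects (knockdown minus overexpression) could be set against each other in 1 contrast. It was negative and past the threshold in 5 of 6 genes, where 27.6% of all genes were called, 13.0% higher and 14.6% lower. Sall2 had the widest difference (-2.31 ± 0.21 log2, adjusted p = 1.74e-06), followed by Pou3f1 (-2.14 ± 0.31, adjusted p = 9.39e-05). Hesx1 differed by -1.10 ± 0.32 (adjusted p = 0.0175), a call lost without Tgif1 KD replicate 2 (0.0896) or shControl replicate 2 (0.0826). Otx2 differed by -0.87 ± 0.24 (adjusted p = 0.0123) and Zfp281 by -0.56 ± 0.11 (adjusted p = 0.00105). Fgf5 gave -0.11 ± 0.19 (adjusted p = 0.721). In Sall2, Pou3f1 and Otx2 the contrast rests mainly on the overexpression change, and in Hesx1 on the knockdown change.

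Other genes of the formative and primed states were read from a list of 20, of which 18 were measured. Counts in this and the later lists stand beside the shares of all genes called higher and lower. The lists too were chosen with earlier results of these data known, so these counts are descriptions only. The shares were 12.5% and 12.9% for Tgif1 KD, 11.4% and 9.51% for Tgif1 OE, and 28.7% and 6.69% for Tgif2 OE. Tgif1 KD lowered 6 of the 18 and raised 0 (6 and 1 after quantile normalization). The lowest were Tcf15, a basic helix-loop-helix factor that primes cells for differentiation (-1.28 ± 0.19 log2, adjusted p = 1.66e-04), and Tcf7l1, the repressor at Wnt target genes (-0.89 ± 0.20, adjusted p = 0.00391). Fgf15, a secreted FGF, followed at -0.87 ± 0.11 (adjusted p = 2.55e-05). The list's median change was -0.32 log2.

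For Tgif1 OE, 8 of these 18 genes were higher and 1 lower, with a median of 0.27. Cdh2, the N-cadherin of the epiblast and neural tissue, rose by 1.29 ± 0.13 log2 (adjusted p = 1.00e-05), and Lef1, a Wnt effector, by 1.05 ± 0.18 (adjusted p = 7.54e-04). Zic2, a zinc finger factor of the primed epiblast, rose by 0.97 ± 0.28 (adjusted p = 0.0246). Fgf15 was the one that fell (-0.28 ± 0.075, adjusted p = 0.0139).

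On the Tgif2 OE side 9 of the 18 were higher and 1 lower (7 and 1 after quantile normalization). Cdh2 rose by 1.70 ± 0.13 log2 and Lef1 by 1.14 ± 0.18 (1.58 and 1.02 relative to the median; adjusted p = 8.71e-07 and 2.65e-04). Sox3 rose by 0.88 ± 0.099 (adjusted p = 1.43e-05), while its second probe set differed by 0.03. Fgf15 fell again (-0.43 ± 0.075, adjusted p = 4.51e-04), against the BirA control arrays that both comparisons share. Between the controls, 9 of the 18 genes were lower on shControl than on BirA control, as Sall2 and Pou3f1 were, and 0 were higher. Of all genes, 7.5% were called lower and 13.6% higher, and control vector and arm cannot be told apart here.

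Of the naive pluripotency genes, 16 of 18 listed were measured. For Tgif1 OE, 9 were lower and 0 higher (9 and 1 after quantile normalization), and 7 did not pass as deposited. Tbx3, a T-box factor of naive cells, fell by 1.63 ± 0.33 log2 (adjusted p = 0.00254; its second probe set differed by -0.15). Tcl1, an activator of Akt, fell by 1.62 ± 0.15 (adjusted p = 3.89e-06), and Esrrb, an orphan nuclear receptor of the naive network, by 1.08 ± 0.22 (adjusted p = 0.00278). Tgif2 OE had 6 lower and 1 higher (9 and 1 after quantile normalization), the higher one being Dppa3, a gene of naive and germ cells (1.07 ± 0.18 log2, adjusted p = 3.91e-04).

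Tgif1 KD had 2 naive genes higher and 2 lower. Fgf4, the FGF that naive cells secrete, rose by 0.69 ± 0.084 log2 (adjusted p = 2.77e-05; its 3 other probe sets differed by 0.08 to 0.71), and Tcl1 rose by 0.73 ± 0.21 (adjusted p = 0.0191). Dppa3 fell by 1.28 ± 0.26 (adjusted p = 0.00165) and Gbx2, a homeodomain factor, by 0.84 ± 0.079 (adjusted p = 2.69e-06). Dppa3 was thus low on Tgif1 KD and high for Tgif2 OE, as Hesx1 was. For Tgif1 OE the 2 genes had opposite signs, with Dppa3 at 0.51 ± 0.18 (adjusted p = 0.0616) and Hesx1 at -0.25, and neither passed.

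**Figure D4:**
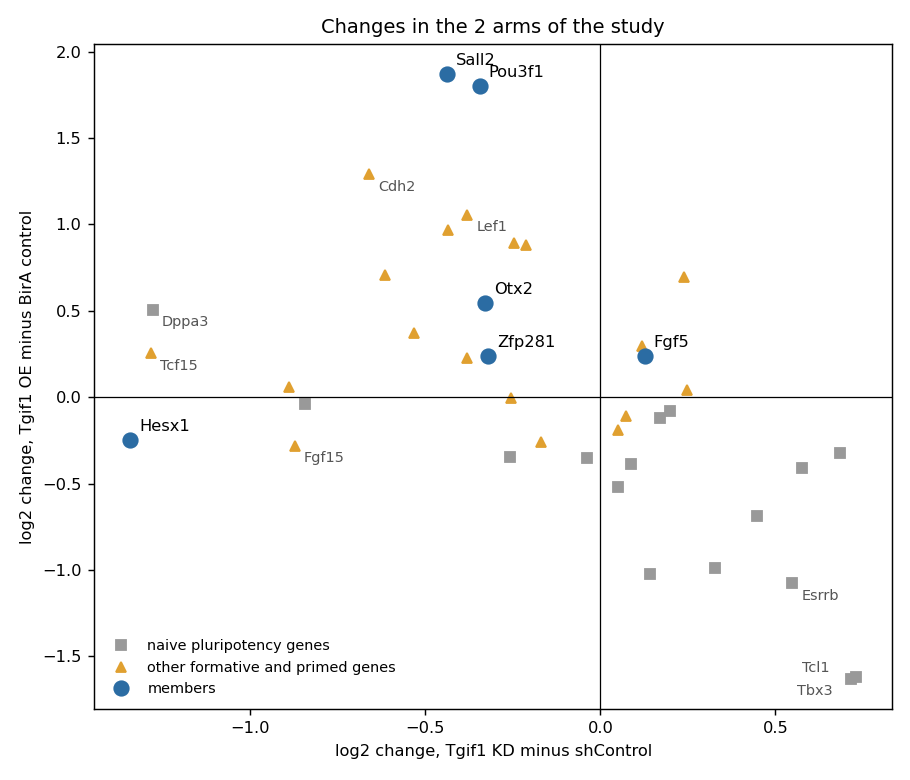
Each point is a gene, placed by its log2 change in Tgif1 KD against shControl (horizontal) and in the arrays labelled Tgif1 OE against BirA control (vertical); circles are the 6 members, triangles 18 other formative and primed genes and squares 16 naive genes. Sall2 and Pou3f1 lie at the top left, Tcl1 and Tbx3 at the bottom right, and Hesx1 far left near 0 on the vertical axis.

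The FGF and ERK pathway, which acts upstream of the formative genes, showed mixed changes. For Tgif1 OE its share was near that of all genes (20.9% called), with 16 of 20 genes not past the threshold. Of 20 measured genes, Tgif1 KD had 4 higher and 4 lower, the arrays labelled Tgif1 OE 2 higher and 2 lower, and those labelled Tgif2 OE 7 higher and 0 lower, which became 2 and 2 after quantile normalization. Dusp6, a phosphatase that ERK signalling induces, was higher in all 3 comparisons (0.52 ± 0.15 log2 for Tgif1 KD, 0.53 ± 0.10 for Tgif1 OE and 0.42 ± 0.10 for Tgif2 OE; adjusted p = 0.0153, 0.00173 and 0.00597), although the last did not pass after quantile normalization (0.28, adjusted p = 0.0566). Other genes of the list did not follow Dusp6. Egr1 fell for Tgif1 OE (-0.35 ± 0.066, adjusted p = 0.00152). Spry4 fell on Tgif1 KD (-0.55 ± 0.14, adjusted p = 0.00957), with -0.17 at its second probe set. Etv4, Etv5, Spry1 and Spry2 passed in none of the 3 comparisons. The receptor Fgfr2 rose by 0.59 ± 0.16 for Tgif1 OE and 1.07 ± 0.16 for Tgif2 OE (adjusted p = 0.0165 and 1.58e-04). The receptor Fgfr3 fell on Tgif1 KD (-0.78 ± 0.15, adjusted p = 0.00118), with -0.03 at its second probe set.

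Relatives of the members in the same gene families (10 of 11 measured) mostly did not pass. For Tgif1 KD, Tgif1 OE and Tgif2 OE alike, 8 of 10 did not, while 25.4%, 20.9% and 35.4% of all genes were called. Tgif1 KD lowered Zfp148, the closest relative of Zfp281, by 0.91 ± 0.13 log2 (adjusted p = 7.82e-05), and its 3 other probe sets gave -1.19 to -1.01. Sall1, of the spalt family, fell for Tgif1 OE (-0.55 ± 0.080, adjusted p = 1.99e-04), where Sall2 rose. Sall4 and Pou3f3 passed for Tgif2 OE as deposited (0.21 ± 0.050 and 0.32 ± 0.077 log2, adjusted p = 0.00553 and 0.00499). After quantile normalization their changes were 0.05 and 0.20, and neither passed (adjusted p = 0.454 and 0.0626).

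Genes of the tissues that the members mark later were read too. Among 15 anterior neural genes, Tgif1 KD had 2 higher and 2 lower (1 and 2 after quantile normalization). Tgif1 OE had 3 higher and 0 lower, and Tgif2 OE 4 higher and 1 lower (2 and 2 after quantile normalization). Nes, the intermediate filament of neural progenitors, rose by 0.89 ± 0.15 log2 for Tgif1 OE and 0.94 ± 0.15 for Tgif2 OE (adjusted p = 7.54e-04 and 3.10e-04). Among 12 genes of the primitive streak and mesendoderm, the counts were 2 and 2, 0 and 1, and 4 and 0 (2 and 0 after quantile normalization). Nodal, the ligand of the Smad2 and Smad3 branch, rose on Tgif1 KD (0.63 ± 0.071, adjusted p = 1.38e-05) and fell for Tgif1 OE (-0.16 ± 0.050, adjusted p = 0.0352; 0.0608 after quantile normalization). Partners of Zfp281 in the NuRD, Tet and Ehmt complexes were read too, with 13 measured. Tgif1 KD had 1 higher and 2 lower (2 and 1 after quantile normalization). Tgif1 OE had 0 higher and 1 lower, and Tgif2 OE 3 higher and 0 lower (1 and 2 after quantile normalization). Chd4, the NuRD ATPase, fell by 0.46 ± 0.16 on Tgif1 KD (adjusted p = 0.0428).

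Markers of other cells differed between the groups, and not all in 1 direction. The summed linear intensity of 11 trophectoderm markers was 1167 to 1364 on BirA control, 2893 to 5623 on the arrays labelled Tgif1 OE and 1977 to 4375 on those labelled Tgif2 OE. For Tgif1 OE 4 were called higher and 1 lower, and for Tgif2 OE 7 and 1 (4 and 0, and 5 and 1, after quantile normalization). Such a sum weighs the brightest probe sets most, and the list's median change was 0.11 log2 for Tgif1 OE and 0.45 for Tgif2 OE. The keratin genes rose in both groups, Krt8 by 2.79 ± 0.36 and 1.81 ± 0.36 log2 (adjusted p = 7.37e-05 and 0.00138) and Krt18 by 2.86 ± 0.40 and 2.14 ± 0.40 (adjusted p = 1.33e-04 and 8.47e-04). Tfap2c fell for Tgif1 OE (-0.40 ± 0.13, adjusted p = 0.0426; 0.0634 after quantile normalization) and rose for Tgif2 OE (0.63 ± 0.13, adjusted p = 0.00178). Hand1 fell for Tgif2 OE (-0.52 ± 0.10, adjusted p = 0.00124). Cdx2, the defining trophectoderm factor, gave 0.51 ± 0.18 for Tgif1 OE (adjusted p = 0.0547) and 0.57 ± 0.18 for Tgif2 OE (adjusted p = 0.0213), and its second probe set gave 0.11 and 0.31. On Tgif1 KD the trophectoderm sum was lower, at 1200 to 1207 against 1507 to 1605 on shControl, with 1 marker called higher and 1 lower.

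The 16 fibroblast markers summed to 4218 to 4790 on BirA control, 5162 to 5881 for Tgif1 OE and 5750 to 6400 for Tgif2 OE, with 7 called higher and 1 lower for Tgif1 OE and 7 and 0 for Tgif2 OE (5 and 1, and 3 and 0, after quantile normalization). Single markers changed more than the sums, Tagln by 3.48 ± 0.36 log2 for Tgif1 OE and 2.575 ± 0.36 for Tgif2 OE (adjusted p = 1.14e-05 and 9.06e-05). Acta2 rose by 1.75 ± 0.31 and 1.66 ± 0.31, with 0.01 and 0.01 at its second probe set. Vim fell for Tgif1 OE (-0.34 ± 0.11, adjusted p = 0.0352) and rose for Tgif2 OE (0.40 ± 0.11, adjusted p = 0.0102). On Tgif1 KD the 16 markers summed to 7772 to 7782 against 5880 to 6097 on shControl. There 2 were called higher, 1 lower and 13 did not pass, and the list's median change was -0.01 log2. On Tgif1 KD Vim rose (0.70 ± 0.15, adjusted p = 0.00297) and Thy1 fell (-1.33 ± 0.15, adjusted p = 1.23e-05). The 12 primitive endoderm markers summed to 5433 to 5694 on Tgif1 KD against 3880 to 3883 on shControl, with 5 called higher and 0 lower. In the overexpression arm they summed to 3427 to 3701 on BirA control, 3811 to 4483 for Tgif1 OE (2 higher, 1 lower) and 4315 to 4883 for Tgif2 OE (6 higher and 2 lower, or 3 and 2 after quantile normalization).

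The scale has no zero, so no marker can be said to be absent. A measure of RNA integrity, the 5′ minus 3′ signal of the Gapdh control probe sets, was -0.22 and -0.21 log2 on shControl and -0.10 and -0.08 on Tgif1 KD. It ran from -0.13 to -0.04 on BirA control, -0.34 to -0.02 for Tgif1 OE and -0.19 to -0.04 for Tgif2 OE. For Actb it averaged -0.64 on shControl, -0.51 on Tgif1 KD and BirA control, -0.54 for Tgif1 OE and -0.45 for Tgif2 OE. The part of these differences in the members' changes was not tested, and in such bulk samples fewer cells of a type and less RNA per cell cannot be told apart.

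Similar profiles were sought for each member whose representing probe set spanned more than 1 log2, which left out Fgf5 and Zfp281. The genes with the most similar profile over the 16 arrays were taken by the root mean square (RMS) difference of the centred log2 values. Nearest to Sall2 were Pim2, a serine/threonine kinase (0.22 log2), Car4, a carbonic anhydrase (0.27), and Prom1, a membrane glycoprotein (0.28). Pou3f1 was nearest to Prom1 (0.23), Tmem54 (0.25) and Fgfbp1, a carrier of secreted FGFs (0.26). Prom1 itself changed by -0.49 log2 on Tgif1 KD, 1.58 for Tgif1 OE and 1.43 for Tgif2 OE.

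Otx2 was nearest to Csnk2a2, a catalytic subunit of casein kinase 2 (0.11 log2), Plcg2, a phospholipase (0.12), and Mapkapk2, a kinase downstream of p38 (0.12). Hesx1 had Rps6kl1 (0.29), Dmrt1, a factor of germ cells and gonads (0.31), and Tfap2c, a factor of trophectoderm and germ cells (0.34) as its nearest genes. Tfap2c changed by -1.02 on Tgif1 KD, -0.40 for Tgif1 OE and 0.63 for Tgif2 OE, the same signs as Hesx1. These distances describe likeness over 16 arrays that share controls and arms, and no test belongs to them. The genes were picked by likeness on the same arrays, so like group changes, as in Prom1 and Tfap2c, follow from that choice.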

How the data were processed

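Total RNA of the 16 samples was hybridized to Affymetrix Mouse 430A 2.0 arrays. The deposited table holds 1 log2 intensity for each probe set and array. Per the submitters' processing notes, the authors used RMA, and limma as well for the Tgif2 samples; the notes used here give no version. The deposited log2 values ran from 2.193 to 14.79. Of 22690 probe sets, 64 were controls, 691 carried several symbols and 1555 none in the supplied platform annotation; the 20380 others gave 12393 genes, each represented by the probe set with the highest mean. No filter on low values was applied.

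In R 4.3.3, limma 3.58.1 fitted the 5 group means to the 16 arrays together (moderated tests, Benjamini-Hochberg adjustment over all genes, threshold 0.05). A second fit over the 20380 probe sets gave the values of the second probe sets. The procedure was tested on simulated data. The number of arrays, 2 or 4 a group, limits the precision.

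Named genes were the members, Tgif1 and Tgif2, up to 3 genes per direction and comparison with the largest change among those past the threshold in each of 10 other lists, and the 3 nearest profiles per member; the text names only some of the list genes. The members and lists were chosen with earlier results of these data known.

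Arrays with the same replicate number were compared by the correlation of their deviations from the group means. It was 0.32 to 0.56 over 12 pairs in the overexpression arm, where each number was its array's best match in 3 of 12, and -0.0044 in the knockdown arm. By the rule used, numbers count as pairs in the overexpression arm. Every best match there, however, lay within replicates 1 and 2 or within 3 and 4. The correlations thus follow that split and do not show pairing by number. The fit with the replicate block is given where it changed a call. Alternatives were 11 other settings and 16 fits that each left out 1 array.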

Additional observations from a re-analysis of the deposited data

Results flagged for a closer look

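Within groups of 4, an array was singled out where its gap to the nearest other, divided by the range of the group, was above 0.829, which chance gives in about 1 of 20 groups. Of the 24 groups checked, 3 met this. Hesx1 read 7.09 log2 on Tgif2 OE replicate 2 and 6.57 to 6.604 on the other 3 (ratio 0.9313). Fgf5 read 4.68 on Tgif1 OE replicate 2 and 4.11 to 4.19 on the others (ratio 0.8601). The brighter Zfp281 probe set, 1452045_at, read 11.34 on Tgif1 OE replicate 2 and 11.25 to 11.26 on the others (ratio 0.8639), within a range of only 0.084 log2. The arrays labelled Tgif1 OE replicate 2 stood out in 2 of these 3, both times on the high side.

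The Hesx1 effects of the arrays labelled Tgif1 OE and Tgif2 OE, against shared BirA control arrays, differed by -1.315 log2 (limma adjusted p = 3.41e-04), with opposite signs (-0.25 and 1.07), of which the first did not pass the threshold.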

How the results depend on the processing

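The number of members called, out of 6, changed by over 1.5 times in these cases. Tgif1 KD against shControl went from 2 to 4 when the fit held only the groups compared. It went to 5 with replicates 1 and 2, or 3 and 4, of the overexpression arm alone. There the Tgif1 KD changes are the same and only the pooled spread differs, and the calls over all 12393 genes rose too, from 3146 to 4975 and 5185. Tgif1 OE against Tgif2 OE went from 1 to 2 after quantile normalization, median centring or averaging probe sets, to 3 with array pairs as a random block and to 4 with replicates 1 and 2 alone. Over all genes that comparison went from 2439 calls to 1235 (quantile), 1115 (centred) and 4026 (random block). ShControl against BirA control went from 2 to 4 with replicates 3 and 4 alone, and over all genes from 2619 to 4082. Leaving out 1 array gave 1 to 2, 4, 5 to 6, 1 to 2, 4 to 5 and 1 to 2 calls for Tgif1 KD, Tgif1 OE, Tgif2 OE, Tgif1 OE against Tgif2 OE, the difference of the Tgif1 effects and the controls.

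With the replicate block, Otx2 on Tgif1 KD passed (-0.33 ± 0.075, adjusted p = 0.00548), and no other member's call changed. Signs turned only where the main value had not passed. Otx2 for Tgif1 OE against Tgif2 OE became 0.040 (quantile) and 0.0013 (centred), and Zfp281 there 0.00016 (quantile). Zfp281 between the controls became -0.010 with averaged probe sets. Sall2 and Pou3f1 for Tgif1 OE against Tgif2 OE became -0.022 and -0.037 with replicates 3 and 4 alone, and Hesx1 for Tgif1 OE 0.050 with replicates 1 and 2 alone. The Fgf5 difference of effects ran from -0.22 to 0.022 when 1 array was left out, the highest without Tgif1 OE replicate 2. Tgif2 for Tgif2 OE became -0.0011 (quantile). Tgif1 between the controls became 0.011 (quantile), 0.086 (replicate block) and 0.025 (replicates 1 and 2 alone), and ran from -0.034 to 0.023 when 1 array was left out. The cause was not tested. Of the members' values under alternatives, 624 kept direction and side of the threshold, 13 lost and 21 gained the call, and 8 changed sign.

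Over all genes, Tgif1 OE against Tgif2 OE had 2439 calls, 1235 after quantile normalization, 1115 after centring, 3688 with the replicate block and 4026 with array pairs as a random block. Tgif1 KD had 3146, 4975 with replicates 1 and 2 of the other arm alone, 5185 with replicates 3 and 4 alone and 2012 without shControl replicate 2. The controls had 2619, then 4527 and 4082 with those pairs alone, and 1369 and 1088 without shControl replicates 1 and 2.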
